A study of Mus musculus with 12 samples.

Results

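The genes described here encode the proteins of the cytosolic ribosome. They were chosen by symbol: names that begin with Rpl or Rps and a digit, without pseudogenes (-ps) and S6 kinases (Rps6k), and with a mean of at least 20 CPM over 12 libraries, where CPM is a gene's UMIs (counted molecules) scaled to one common library total. Of 33696 genes in the files, 97 symbols had such a start, 83 were left after the exclusions by name, and 79 reached the limit. These 79 members comprise 33 Rps genes (small subunit) and 46 Rpl genes (large subunit). Among them, 73 are the standard ribosomal protein genes, and 6 are named after one: the paralogs Rps27l, Rpl22l1, Rpl36al and Rpl7l1, the retrocopy Rps27rt, and Rps19bp1, which encodes a binding partner of a ribosomal protein. Just inside the limit were Rps19bp1 (mean 32.8 CPM), Rps27rt (39.8) and Rpl7l1 (74.8). Just outside were Rpl39l (4.34 CPM) and Rpl3l (0.195), while Rpl10l and Rps23rg1 were at or near 0. All 79 members passed the filter on low counts and were tested.

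Single cells were measured with droplet 3′ sequencing in sorted CD3+ CD4-negative γδ T cells from spleen, sorted γδ T cells from thymus, and a joint sort of the thymic precursors DN1, DN2 and DN3, from adult WT and GFI1 KO mice on a C57BL6/J background. GFI1 is a transcriptional repressor of blood cells. The study's methods list the KO line apart from a floxed line used with Cre, so the loss is not limited to T cells, and how the allele was built is not given in the sources used here. B cells, myeloid cells and NK cells were reduced with magnetic beads before the sort. WT and KO cells carried different hashtag antibodies and were mixed into 6 pools, 2 per compartment, and each pool was split again by hashtag, which gives 12 libraries with 2 per genotype and compartment. Thymic γδ T and DN1-DN3 cells came from the same mice, the 2 libraries of a pool share a droplet run, and the number of mice behind each pool is not given in the sources used here.

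The KO label did not go with less Gfi1 mRNA. In spleen it had 11.8 and 18 CPM in WT and 18.1 and 18.1 CPM in KO, in thymic γδ T cells 16.5 and 17.6 against 28.9 and 19.2 CPM, and in DN1-DN3 cells 44.7 and 40.6 against 70.6 and 56.6 CPM. It was thus higher in the KO-labelled library of 6 of 6 pools. Since the deleted stretch is not known here, whether a 3′ count can check the label cannot be said, and every direction below rests on the labels. Markers of IL-17-producing γδ T cells summed to 634 and 637 CPM in WT-labelled and 7141 and 7590 CPM in KO-labelled spleen. The paper reports more such cells in KO spleen by flow cytometry. The libraries held 42091895 to 71663962 UMIs each, from 96911 cells in all, of which 7043581 to 12679142 UMIs per library fell on the members. Trdc, a γδ T cell receptor gene, was at 1233 to 2051 CPM in the γδ T libraries and at 126 to 199 CPM in DN1-DN3. It was the only one of 4 fixed γδ markers found by its listed symbol. The others were looked up under Tcrg symbols, while the paper's gene lists use Trgc1 and Trgc2. Xist was at most 0.37 CPM in spleen and at least 739 CPM in thymus, and the Y-linked Ddx3y at 82.2 to 100 CPM against 11.6 to 35.8 CPM, so the sexes of the mice were not the same for the organs. In DN1-DN3 cells Ddx3y was also lower in KO (28.0 and 25.96 against 11.6 and 14.2 CPM, log2 −1.06, adjusted p = 0.00241), while Xist did not pass there (adjusted p = 0.79). Barcodes shared by 2 libraries numbered 0 within a pool and 5 to 34 across pools.

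Ribosomal proteins are made in equal numbers for each ribosome, and their mRNAs belong to the most abundant in growing cells. The transcripts typically start with a C followed by a run of pyrimidines, a 5′ terminal oligopyrimidine tract, through which the kinase mTOR and the protein LARP1 control their translation and stability. Resting lymphocytes hold few ribosomes and build more when they are activated, with the transcription factor Myc driving much of the machinery. To show what these starts look like, windows of 25 bases before to 15 bases after the annotated start are given for the members that turn up in the comparisons, 5′ to 3′ on the gene's strand, from RefSeq on GRCm38.p6 (the counts were made on GRCm39). Capitals mark a C followed by at least 5 further pyrimidines that begins within 10 bases of the start. A run that begins farther out is marked from its first C within that distance. This is so for Rps27l, where the marked stretch also ends before the annotated start. Shown are 4 members with low splenic values in the KO-labelled libraries, the Rps27 family of a gene, its retrocopy and its paralog, and Rps19bp1. These 4 all have a tract, but Rpl36a, which also had low splenic values, has none in this window. The examples thus do not tie a tract to the direction of a gene.
Rps18 (chr17:33955651-33955690, minus strand): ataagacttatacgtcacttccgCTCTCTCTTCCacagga
Rpl12 (chr2:32961687-32961726, plus strand): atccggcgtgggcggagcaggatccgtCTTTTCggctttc
Rps15a (chr7:118116133-118116172, minus strand): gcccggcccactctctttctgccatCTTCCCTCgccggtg
Rps24 (chr14:24490653-24490692, plus strand): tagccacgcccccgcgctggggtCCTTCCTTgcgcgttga
Rps27 (chr3:90213634-90213673, minus strand): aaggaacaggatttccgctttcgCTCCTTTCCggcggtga
Rps27rt (chr9:114982725-114982764, minus strand): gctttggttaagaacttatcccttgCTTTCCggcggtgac
Rps27l (chr9:66946061-66946100, plus strand): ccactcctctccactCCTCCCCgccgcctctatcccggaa
Rps19bp1 (chr15:80264292-80264331, minus strand): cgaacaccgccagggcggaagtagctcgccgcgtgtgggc

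The promoter table held 60 of the 79 members. Such a tract was found for 33 of the 60 (55%) and for 21.9% of all 27025 genes in the table, counting any listed start of a gene, while the windows above are the first listed. The letters CGGAAG, the core bound by ETS family factors, stood on either strand of the 300-base window (250 bases before to 50 after the start) in 41 of 60 members (68.3%) and in 18.8% of all genes. On the minus strand these letters read CTTCCG and can overlap a tract. The letters AAATCA, part of the site described for GFI1, stood in 7 of 60 members (11.7%) and 15.9% of all genes. Rps27 and Rps27rt shared an identical run of 38 bases in the 75 bases from 25 before to 50 after the start, while the longest run shared by Rps27 and Rps27l was 6 bases. A match is a description of letters only.

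Many of these genes have processed copies in the genome, which can share reads with them. In the last 300 bases of their coding transcripts (GENCODE M21, GRCm38), 60-base windows were looked up in the transcripts of all other genes, and the median share of windows found there was 50%. For 9 members, Rpl12, Rps20 and Rps19bp1 among them, no window was shared, and for Rps27l 11% were. For Rps27rt 88% of the windows were shared, with Rps27 among the other genes, and for Rpl36a 100%. The counts of such genes may be less certain, and by how much was not tested.

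The members took a smaller part of the transcriptome in the KO-labelled splenic γδ T cells than in any other library. In spleen they held 20.7% and 20.2% of all UMIs in the WT libraries and 15.04% and 13.5% in the libraries labelled KO. The mean difference was −6.16 percentage points (WT 20.4 ± 0.39, KO 14.3 ± 1.09, SD, n = 2), and the groups did not overlap. In thymic γδ T cells the 4 libraries lay together, at 17.7% and 17.7% in WT and 17.8% and 17.8% in KO, a difference of 0.117 points (0.785 points in cells of 3000 to 9000 UMIs, where both pools were higher in KO). In DN1-DN3 cells the 2 pools stood apart in both genotypes, with 17.7% and 20.4% in WT and 17.3% and 20.8% in KO, and the difference of 0.0233 points was inside the spread between pools (SD 1.91 and 2.5) and differed in sign within them (−0.397 and 0.444 points). The exact permutation test of 2 against 2 libraries gave p = 0.33 in spleen, the smallest value this design allows, 0.33 in thymic γδ T cells and 1 in DN1-DN3. Over the 6 pools the mean difference was −2.01 points and 3 of 6 pools were lower in KO (exact sign-flip test, two-sided, p = 0.375; the smallest possible is 0.03125). Counting error alone put a 95% Wilson interval of at most ±0.0122 points on each share.

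**Figure D1:**
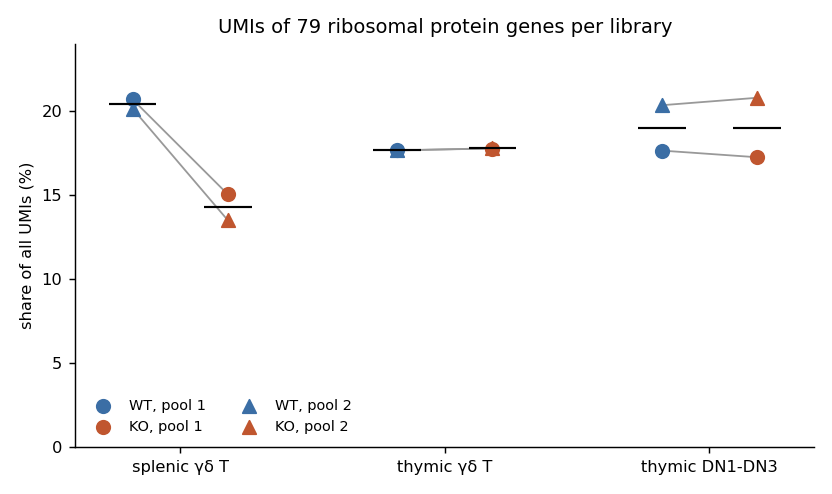
Share of all UMIs (%) that fell on the 79 ribosomal protein genes in each of the 12 libraries, labelled WT (blue) or KO (orange), with circles for pool 1, triangles for pool 2, grey lines joining the libraries of one pool and black bars at the means. The splenic KO-labelled libraries lie at 15.04% and 13.5%, below all other libraries, while the thymic γδ T libraries coincide and the DN1-DN3 libraries differ by pool.

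Both subunits took part in the splenic difference, the small subunit somewhat more. Rps genes held 10.0% and 9.72% of UMIs in WT and 6.99% and 6.28% in KO, and Rpl genes 10.7% and 10.4% against 8.06% and 7.22%. The ratio of Rps to Rpl UMIs was 0.934 and 0.931 in WT spleen and 0.867 and 0.869 in the KO-labelled libraries. In the other 8 libraries this ratio stayed between 0.898 and 0.917.

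The difference was also seen from cell to cell. The median cell of the WT splenic libraries had 19.9% and 19.1% of its UMIs on these genes, against 14.1% and 12.8% in KO, which is 993 and 980.5 ribosomal protein UMIs against 758 and 681. All other UMIs went the opposite way, with medians of 3877 and 3959 per cell in WT and 4674 and 4710 in KO. The spread over cells was wider in WT, where the 90th percentile lay at 30.4% and 28.6% against 20.5% and 17.9%. At the low end the order turned: cells with under 5% of UMIs on these genes (a limit set after seeing the data) made up 13.6% and 9.74% of WT and 3.02% and 2.74% of KO splenic cells.

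Cells of low depth had a low share in both genotypes. In cells of 500 to 3000 UMIs, the splenic shares were 8.9% and 8% in WT and 8.48% and 8.08% in KO. In cells of 5000 to 7000 UMIs they were 22.3% and 21.8% against 14.2% and 12.8%, and in cells of 9000 UMIs and over 21.3% and 20.4% against 16.95% and 14.7%. From 3000 UMIs up, the KO-labelled libraries were below the WT libraries in each of the 4 depth classes.

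**Figure D2:**
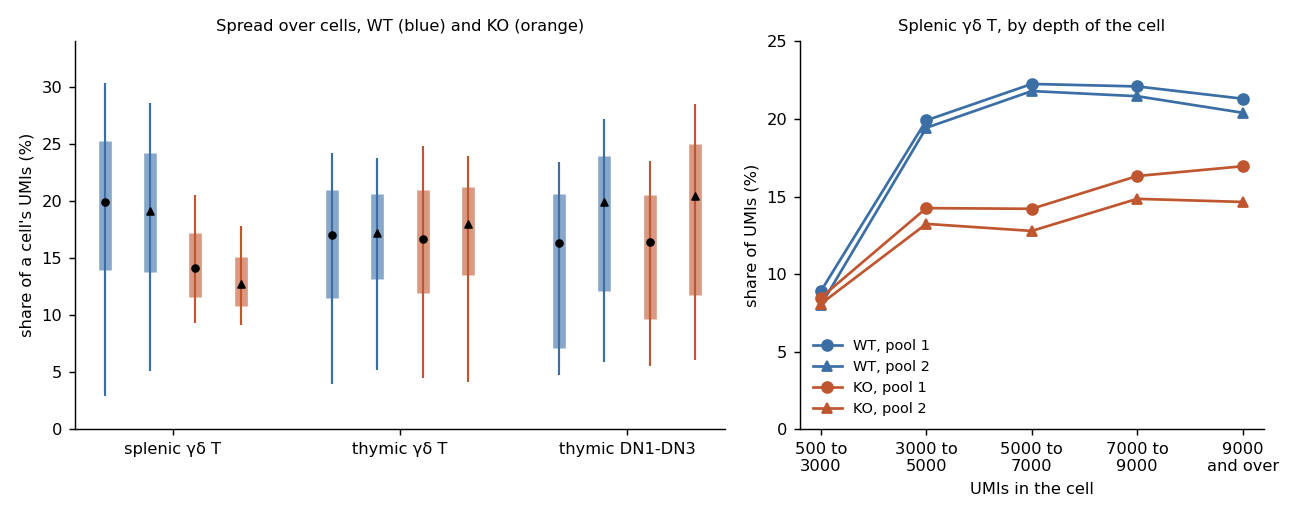
Left, share of a cell's UMIs (%) on ribosomal protein genes in each library, with the median (symbol), the middle 50% of cells (thick bar) and the 10th to 90th percentiles (line). Right, the share (%) in splenic γδ T cells of 5 depth classes (UMIs in the cell): the libraries coincide below 3000 UMIs and part above it, WT at 19.4% or more and KO at 16.95% or less.

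The splenic libraries differed in their cells as well as in these genes. Markers of IL-17-producing γδ T cells (Maf, Blk, Scart1, Cxcr6 and Il17a) summed to 634 and 637 CPM in WT and to 7141 and 7590 CPM in KO, and cells whose leading Vγ gene was Trgv6 numbered 417 in WT and 8035 in KO. The share was therefore taken by Vγ call. Trgv6 cells had 17.7% and 18.2% in WT and 14.6% and 13.2% in KO (difference −4.03 points). Trgv1 cells had 20.5% and 19.7% against 15.6% and 13.6%, Trgv2 cells 20.1% and 19.98% against 15.8% and 13.95%, and Trgv4 cells 20.1% and 20.1% against 16.1% and 15.7%. Each of the 4 classes was thus lower in both KO-labelled libraries, with only 66 and 73 cells in the smallest of them. The paper states that 3′ sequencing captures these variable genes unreliably, and 3552 and 3594 WT DN1-DN3 cells were also called Trgv2. A class here is a group of cells by leading Trgv gene and need not be a true Vγ subset. In the thymus, Trgv6 cells had 18.8% and 16.6% in WT, where they numbered 41 and 57, and 15.7% and 17.2% in KO, so that the groups overlapped and the mean difference turned to −1.28 points. The other 3 classes were higher in both thymic KO-labelled libraries, without overlap. Trgv1 cells had 17.6% and 17.4% in WT and 21.2% and 18.9% in KO, Trgv2 cells 17.99% and 17.8% against 19.2% and 18.5%, and Trgv4 cells 16.98% and 17.2% against 18.4% and 18.4%. The difference of 0.117 points over all thymic γδ T cells was thus smaller in size than that within each class, and Trgv6 cells numbered 2028 and 2691 in the thymic KO-labelled libraries.

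Sums of marker lists for other cell types moved with genotype in spleen. B cell markers summed to 219 and 441 CPM in WT and 62 to 119 CPM in KO, myeloid markers to 119 to 135 against 316 to 339, NK markers to 95.7 and 113 against 9.78 and 10.7, and erythroid markers to 37.1 to 41.8 against 73.6 to 165. Markers of αβ T cells summed to 1745 to 1806 CPM in WT and 993 to 1031 in KO, and plasma cell markers to 36.7 and 266 against 124 and 147. DN precursor markers (Ptcra, Rag1, Il2ra, Kit and Dtx1) summed to 172 to 203 CPM in WT and 245 to 258 in KO. Platelet markers stayed at or below 0.235 CPM. Under 1 CPM in both KO libraries were 3 of 5 B cell, 3 of 5 myeloid and 2 of 5 DN precursor markers. In the paper's comparison within splenic Trgv6+ cells, Cst3, Xbp1 and Il2ra were higher and Trac, Trbc1 and Trbc2 lower in KO. A sum thus need not reflect other cell types, and their part in the result was not tested. Cycling markers overlapped in summed CPM, at 55.2 and 90.5 in WT and 69.5 to 86.5 in KO. Cells that held a UMI of one were nevertheless more frequent in KO, at 28.2% and 27.3% against 8.07% and 5.99% in WT. Without these cells the share differed by −6.25 points.

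Gene by gene, the splenic difference passed the test for 36 of 79 members and did not for 43. With edgeR's quasi-likelihood test (Benjamini-Hochberg adjustment over 18056 genes), 34 of 79 members fell and 2 rose, while 25.9% of all genes were lower and 26.3% higher. The median log2 difference was −0.39 for the members and −0.02 for all genes tested, and 73 of 79 members had a negative value. Of the 34, 19 were Rps and 15 Rpl genes. With the pool as a block, 61 members fell and 3 rose (all genes 27.3% lower and 28.2% higher). The KO and WT libraries did not overlap for 72 members that were lower and 4 that were higher, against 44.3% and 32.6% of all genes tested. The count depended on single libraries: without KO replicate 2 it was 7, without WT replicate 1 it was 17 and without WT replicate 2 it was 19.

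Rps18, a protein of the head of the small subunit, had 3960 and 3391 CPM in WT and 2211 and 1788 CPM in KO, and fell by 0.77 on the log2 scale (SE 0.18, adjusted p = 0.00451). Rpl12, which sits at the base of the ribosomal stalk, had 3801 and 3548 CPM against 2157 and 1869 CPM (log2 −0.76, SE 0.13, adjusted p = 0.000657). Rpl12 shared no 3′ window with another gene and was called under all 14 alternatives. Rpl36a, X-linked, had 1265 and 1117 against 709 and 602 CPM (log2 −0.75, SE 0.20, adjusted p = 0.00844). Rps20 had 3865 and 3890 against 2326 and 2105 CPM (log2 −0.70, SE 0.17, adjusted p = 0.00568). Rps15a had 5722 and 5720 against 3424 and 3173 CPM (log2 −0.68, SE 0.17, adjusted p = 0.00532). In each of these 5 genes both KO-labelled libraries were below both WT libraries by more than the spread within a genotype. Rps24, the most abundant member over all libraries (mean 5156 CPM), had 7363 and 7290 CPM in WT spleen and 4412 and 4114 CPM in KO (log2 −0.67, adjusted p = 0.00508). Of the next 4 by mean level, Rps15a, Rpl13 (log2 −0.68) and Rpl23 (log2 −0.56) also fell, and Rps14 did not pass (log2 −0.37, adjusted p = 0.0562, but 0.00356 with the pool as a block and 0.0249 by DESeq2).

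The 2 members that rose are outside the 73 standard ribosomal protein genes. Rps19bp1 had 22 CPM in both WT libraries and 40 and 41 CPM in KO (log2 0.97, SE 0.13, adjusted p = 7.95e-05). Rps27l, a paralog of Rps27 and a known p53 target, had 198 and 160 CPM in WT and 276 and 233 CPM in KO (log2 0.62, SE 0.18, adjusted p = 0.0152). In both genes the groups were apart. In Trgv6 cells alone Rps19bp1 had a log2 value of 0.33 (adjusted p = 0.253) and Rps27l of 0.06 (adjusted p = 0.869). Rpl36al had 670 and 643 CPM in WT and 781 and 743 in KO and did not pass (log2 0.33, adjusted p = 0.0919, with the pool as a block 0.00706). Rpl10, which completes the peptidyl transferase region, and Rpl13a had positive values that passed in neither fit (log2 0.24 and 0.15).

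**Figure D3:**
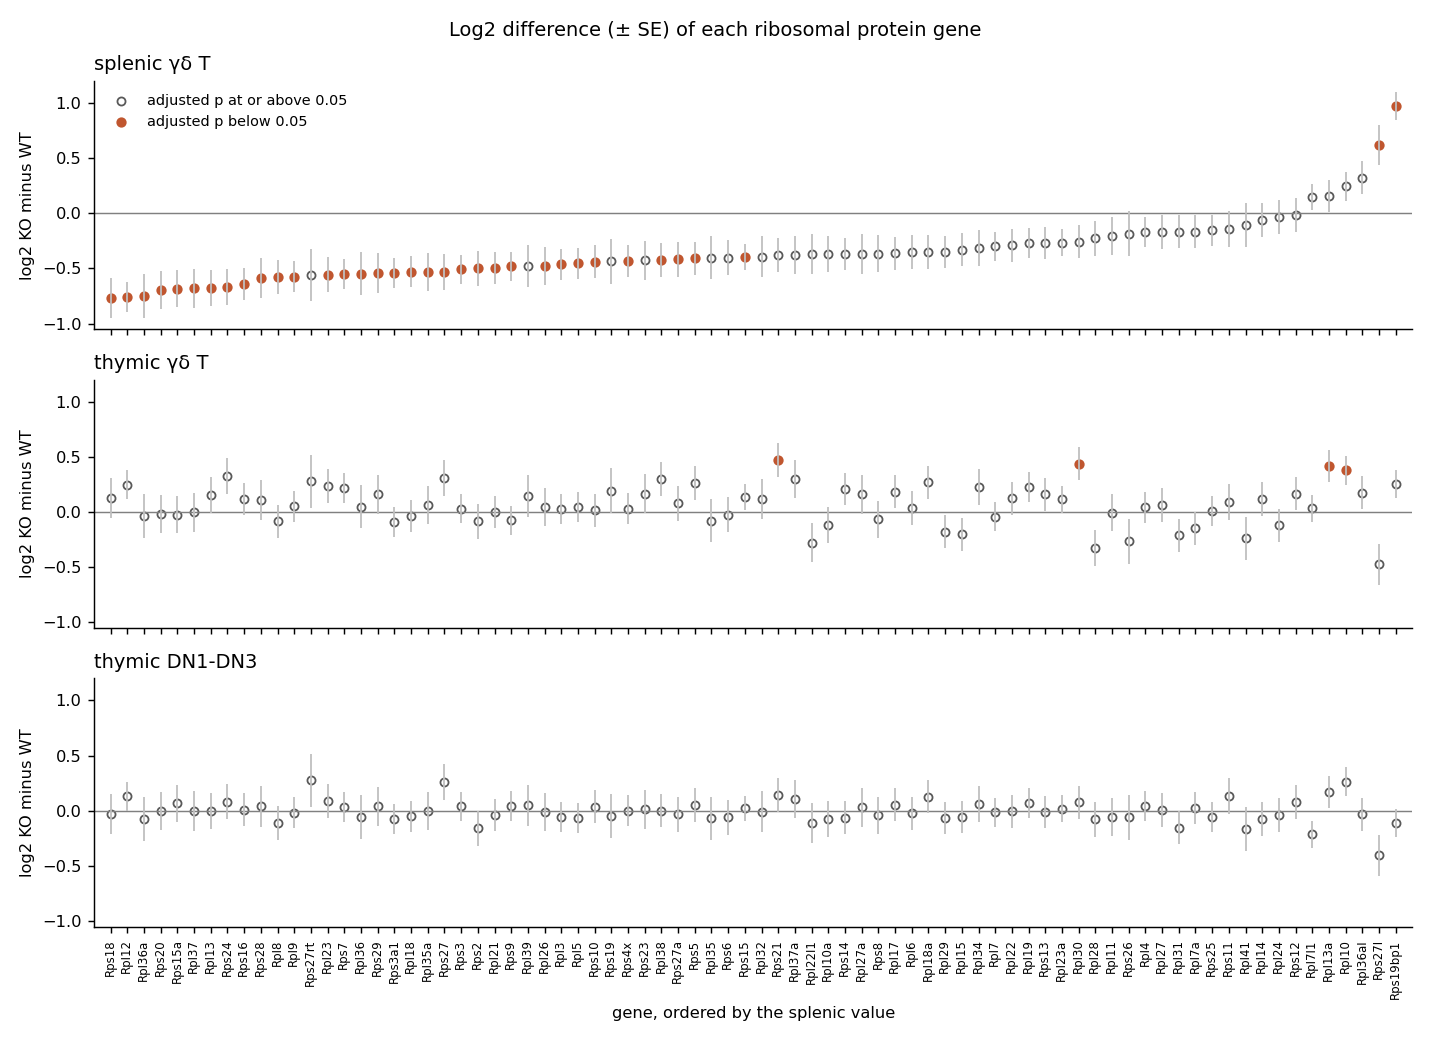
Log2 difference KO minus WT (± SE) of 78 of the 79 members in the 3 compartments, genes ordered by the splenic value. Filled points had an adjusted p below 0.05: 35 in spleen, nearly all below 0, 4 above 0 in thymic γδ T cells and 0 in DN1-DN3.

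When only Trgv6 cells were counted, 14 of 79 members fell in spleen and 0 rose, where 6.47% of 12851 genes tested were lower. The median of the members was −0.36, against 0.04 for all genes in that fit. Among the 14 were Rps20 (log2 −0.54), Rpl13 (−0.53), Rps18 (−0.53) and Rpl12 (−0.50).

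In thymic γδ T cells few members passed in the main fit, and those upward. There, 4 of 79 members rose and 0 fell (2 were lower at an unadjusted p under 0.05, and DESeq2 called 1 lower), while 22.7% of all genes were higher and 23.8% lower. Rps21 had 1616 and 1599 CPM in WT and 2099 and 2119 CPM in KO (log2 0.47, SE 0.15, adjusted p = 0.0269). Rpl30 had 2434 and 2382 against 3009 and 3169 CPM (log2 0.44, SE 0.15, adjusted p = 0.0323). Rpl13a had 2423 and 2469 against 3039 and 3141 CPM (log2 0.42, SE 0.15, adjusted p = 0.0367), and Rpl10 had 1838 and 1667 against 2184 and 2127 CPM (log2 0.38, SE 0.13, adjusted p = 0.0333). In these 4 genes the KO-labelled libraries lay above both WT libraries. The calls rest on few libraries: without 1 of the 4 thymic libraries 0 or 1 members rose.

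With the pool as a block, 18 members rose and 6 fell in thymic γδ T cells (all genes 24.3% higher and 25.9% lower). In a fit of the 4 thymic γδ T libraries alone, 25 rose and 6 fell, where 4557 and 4341 of 16458 genes did. The lowest value was that of Rps27l, with 343 and 385 CPM in WT and 252 and 245 CPM in KO (log2 −0.48, SE 0.18, adjusted p = 0.054, blocked 0.00186, by DESeq2 0.0458). The libraries of the 2 genotypes did not overlap for 36 members that were lower and 33 that were higher, against 46.8% and 32.1% of all genes tested. Cycling marker genes summed to 1020 to 1245 CPM in WT and 232 to 284 CPM in KO, the IL-17 list to 686 and 808 against 5081 and 5670 CPM, and αβ T cell markers to 3175 to 3262 against 1303 to 1531 CPM. B cell markers summed to 155 to 157 CPM in WT and 63.5 to 81.5 CPM in KO, and myeloid markers to 106 to 113 against 180 to 195. Plasma cell markers summed to 63.2 to 65.0 against 99.4 to 137 CPM, and DN precursor markers to 60.7 to 80.8 against 134 to 160. Their part in the result was not tested.

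In DN1-DN3 cells no member passed the test. By edgeR 0 of 79 rose and 0 fell (0 and 1 at an unadjusted p under 0.05, and 0 and 0 adjusted by DESeq2), while 14.3% of all genes were higher and 6.32% lower. The 2 genotypes overlapped for 74 of 79 members and for 42.4% of all genes tested. The pools differed more than the genotypes, with 77 members in WT and 79 in KO higher in pool 2. With the pool as a block 2 members rose and 1 fell (all genes 15.8% and 10.1%). Rps27 had 986 and 1242 CPM in WT and 1228 and 1435 CPM in KO (log2 0.26, blocked adjusted p = 0.0321), and its retrocopy Rps27rt gave a blocked p of 0.0287. Rps27l had 536 and 632 against 379 and 500 CPM (log2 −0.41, adjusted p = 0.147, blocked 0.00778). Markers of IL-17-producing cells summed to 92.4 and 93 CPM in WT and to 695 and 1153 CPM in KO, and plasma cell markers to 122 and 145 against 354 and 549 CPM. Cycling markers summed to 1118 and 1147 CPM in WT and 691 and 834 CPM in KO, myeloid markers to 98.9 and 102 against 142 and 158, B cell markers to 114 and 121 against 134 and 258, and αβ T cell markers to 2082 and 2160 against 1989 and 2029. NK markers summed to at most 20.6 CPM, higher in KO, and erythroid markers to at most 8.88 CPM, higher in WT. Without the cells that held a UMI of a cycling marker the share difference was 0.995 points in place of 0.0233, with 0.830 and 1.16 points within the pools. In cells of 3000 to 9000 UMIs it was 1.33 points (1.33 and 1.34 within the pools), and as a mean over cells 0.586 points (0.614 and 0.558). Under these settings both pools were thus higher in KO, while the exact permutation test over libraries, which takes no account of the pools, gave p = 0.67 for each. The part of the other markers in these values was not tested.

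The KO effect in spleen was then compared with that in thymic γδ T cells by the interaction term of the same fit. The splenic effect was more negative for 15 members and more positive for 2, where 14.2% and 13.0% of all genes were called. The median of this difference was −0.49 for the members and −0.04 for all genes. Rpl12 differed by −1.01 (SE 0.19, adjusted p = 0.00295), Rps24 by −0.996 (SE 0.23, adjusted p = 0.00907) and Rps18 by −0.89 (SE 0.26, adjusted p = 0.0254). On the other side stood Rps27l with 1.10 (SE 0.26, adjusted p = 0.0105) and Rps19bp1 with 0.72 (SE 0.18, adjusted p = 0.0128). With the pool as a block 52 members were more negative and 2 more positive (all genes 16.4% and 15.9%), and without 1 library the 15 became 2 to 15. It was 2 without splenic KO replicate 2 or either thymic WT library, and 5 or 6 without a splenic WT library or thymic KO replicate 2, while the 2 positive calls became 0 without splenic WT replicate 2. In cells of 3000 to 9000 UMIs the values of Rps27l and Rps19bp1 dropped to 0.48 (adjusted p = 0.199) and 0.36 (adjusted p = 0.157). Among Trgv6 cells alone, an alternative added after seeing the data, the interaction called 0 members in either direction (21 more negative and 0 more positive at an unadjusted p under 0.05, with a median of −0.38), where 1.41% and 0.747% of 12851 genes were called, and DESeq2 was not run there. Organ, sex of the mice and droplet run cannot be told apart in this comparison.

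Among WT thymic cells, few members separated γδ T from DN1-DN3 cells. In γδ T cells 3 members were lower and 0 higher (3 higher at an unadjusted p under 0.05, and 1 by DESeq2), while 20% of all genes were lower and 23.1% higher. Rps27l was lower by 0.65 on the log2 scale (343 and 385 against 536 and 632 CPM, SE 0.18, adjusted p = 0.0149). Rps14 had 3832 and 4009 CPM in γδ T and 5465 and 6070 CPM in DN1-DN3 cells (log2 −0.52, SE 0.15, adjusted p = 0.0145), and Rpl7l1 had 70 and 74 against 93 and 94 CPM (log2 −0.34, SE 0.12, adjusted p = 0.04). Each of these was lower in both γδ T libraries. Both kinds of cells came from the same mice, which the fit does not take into account. Without 1 library 0 to 2 members were lower.

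Paralogs of one protein behaved in different ways, best seen in the Rps27 family. In WT, Rps27 was highest in spleen (3157 and 2880 CPM), then thymic γδ T (1397 and 1408) and lowest in DN1-DN3 (986 and 1242), and the spleen to DN1-DN3 ratio of 2.71 was the highest of the members beside that of Rps27rt (3.32). Rps27l ran the other way, from 198 and 160 CPM in spleen to 536 and 632 CPM in DN1-DN3, a DN1-DN3 to spleen ratio of 3.27. No other member exceeded 1.90 in the first ratio (Rps21) or 1.69 in the second (Rps19bp1). These organ differences were not tested. Rps27l as a percentage of Rps27 was 6.26 and 5.55 in WT spleen and 13.4 and 12.9 in KO, 24.6 and 27.4 in WT thymic γδ T and 15.3 and 14.9 in KO, and 54.4 and 50.9 in WT DN1-DN3 and 30.9 and 34.9 in KO. In the splenic KO-labelled libraries Rps27 fell (log2 −0.53, SE 0.16, adjusted p = 0.0181). Rps27rt stayed between 1.92% and 2.67% of Rps27 in the 12 libraries, and it shares most of its 3′ windows with other transcripts.

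**Figure D4:**
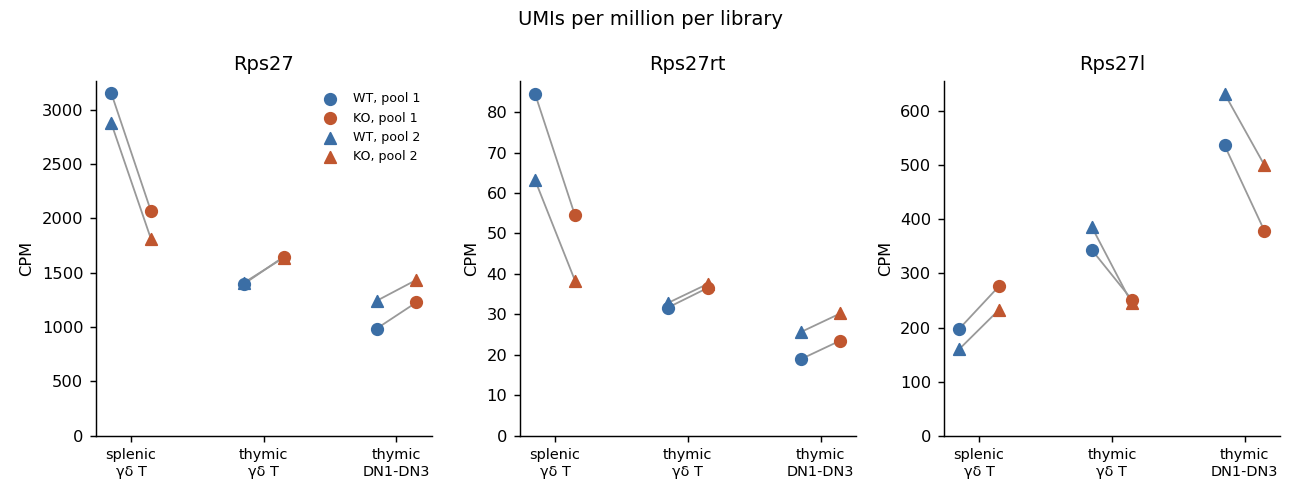
CPM of Rps27, its retrocopy Rps27rt and its paralog Rps27l in each library, labelled WT (blue) and KO (orange), circles for pool 1, triangles for pool 2 and lines joining a pool. Rps27 and Rps27rt are highest in WT spleen and lower in splenic KO, while Rps27l is highest in DN1-DN3 and is higher in KO only in spleen.

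Rpl36al as a percentage of the X-linked Rpl36a was 52.9 and 57.6 in WT spleen and 110 and 124 in the KO-labelled libraries, so that the paralog overtook the main gene there. In the other 8 libraries it was 54.6 to 73.1. Both genes share 3′ windows with other transcripts (66.1% for Rpl36al). Loss of Rpl22 is known to arrest developing T cells of the αβ lineage. Rpl22 and its paralog Rpl22l1 passed in no compartment in the main fit. Some alternatives did call them: in spleen 4 of 14 called Rpl22 and 3 of 14 called Rpl22l1. In spleen Rpl22 had 1728 and 1607 against 1361 and 1165 CPM (adjusted p = 0.128, blocked 0.0105) and Rpl22l1 619 and 609 against 464 and 416 CPM (adjusted p = 0.104, blocked 0.00725). Rpl7 had a splenic log2 value of −0.30 (adjusted p = 0.0778, blocked 0.0122, by DESeq2 0.0428) and Rpl7l1 of 0.15 (adjusted p = 0.321). Rpl39l, outside the limit, reached 29.8 CPM in 1 splenic KO library and 3.09 in the other, against 1.71 and 1.68 in WT, so its difference lay mostly in 1 library.

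Rpl5 and Rpl11 are the proteins that, outside the ribosome, bind Mdm2 and stabilize p53. Rpl5 fell in spleen, from 2362 and 2300.5 to 1621 and 1533 CPM (log2 −0.45, SE 0.14, adjusted p = 0.0158), and Rpl11 had 2676 and 2571 against 2235 and 1977 CPM (log2 −0.21, adjusted p = 0.334). Of the 4 X-linked members, Rps4x (log2 −0.43) and Rpl36a fell in spleen, Rpl39 missed the limit in the edgeR fit without the block (log2 −0.48, adjusted p = 0.0523, blocked 0.00147) and was called under 8 of 14 alternatives, and Rpl10 did not pass. Among the ubiquitin fusions, Rps27a fell in spleen (log2 −0.42, adjusted p = 0.0469), and Fau (−0.14) did not pass.

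Relative to the rest of the family, a few members moved alike in all pools. The share of each member in the ribosomal protein UMIs of its library was higher in KO in 6 of 6 pools for 11 members and lower in 6 of 6 for 11 others. Rpl10 led the first group, with log2 ratios of 0.23 to 0.72 over the pools, followed by Rpl13a (0.10 to 0.59). Rps12 had ratios of 0.39 and 0.39 in spleen and 0.03 to 0.12 elsewhere. In the second group Rpl36a ranged from −0.37 to −0.03 and Rpl8 from −0.20 to −0.10. These genes were picked for their sign and were not tested. Rpl10 and Rpl36a share 88.1% and 100% of their 3′ windows with other genes.

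**Figure D5:**
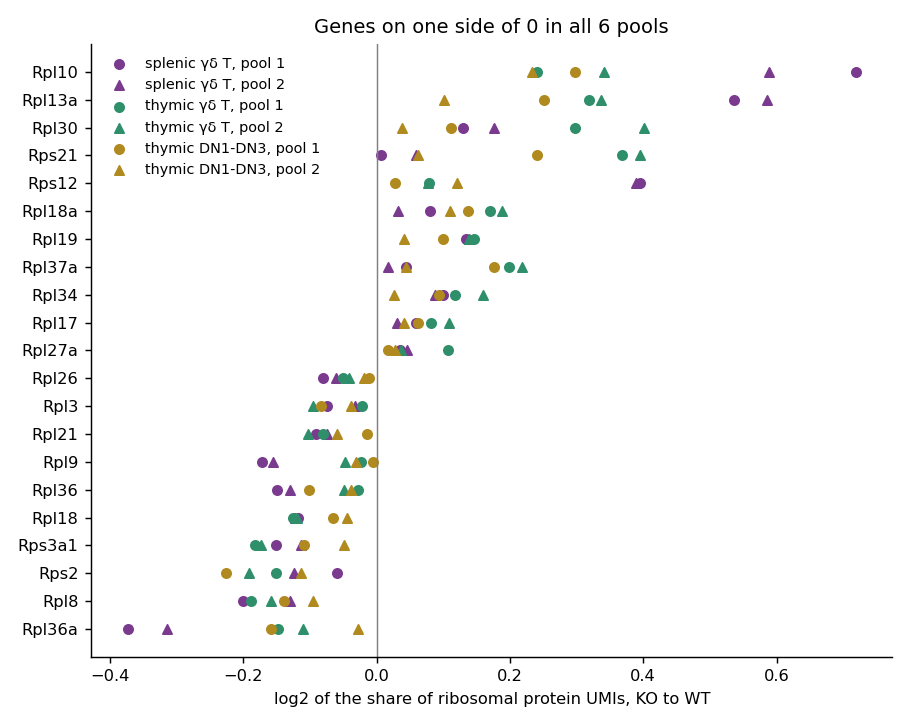
Log2 ratio, KO to WT, of each gene's share of the ribosomal protein UMIs in the 6 pools, for 21 of the members on one side of 0 in every pool. Colours give the compartment, circles pool 1 and triangles pool 2, and Rpl10 and Rpl13a lie farthest to the right in spleen.

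Other genes of the ribosome and its supply were taken from fixed lists. Of 7 ribosomal genes whose symbols lie outside the pattern, 3 fell in spleen (25.9% of all genes were lower), and 0 passed in thymic γδ T or DN1-DN3 cells (0 also at an unadjusted p under 0.05 and by DESeq2). With the pool as a block, 3 rose and 1 fell in thymic γδ T cells, where 24.3% of all genes were higher and 25.9% lower. The stalk proteins Rplp1 (6013 and 5926 against 3846 and 3557 CPM, log2 −0.58, adjusted p = 0.00464) and Rplp2 (log2 −0.46, adjusted p = 0.019) fell, as did Rpsa (log2 −0.43, adjusted p = 0.0269). Rplp0, the stalk's anchor, did not pass (log2 −0.08, adjusted p = 0.663).

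A further list held 14 genes known for the same kind of 5′ tract, mostly translation factors. Of these, 2 fell and 1 rose in spleen (5 and 3 with the block), with a median of −0.07, where 25.9% of all genes were lower and 26.3% higher. The elongation factor subunits Eef1b2 (log2 −0.57) and Eef1g (−0.59) fell, Nap1l1, a histone chaperone, rose (0.54), and Eef1a1, the most abundant elongation factor, had −0.01 (adjusted p = 0.964). Tpt1 rose (log2 0.50) in thymic γδ T cells, where Nap1l1 (−0.72) and Hnrnpa1 (−0.95) fell. In DN1-DN3 cells Nap1l1 fell (−0.59).

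A list of 26 genes held those of ribosome assembly and RNA polymerase I and, with them, the transcription factor Myc and Larp1, the protein that binds 5′ tract mRNAs. Of the 26, 12 fell, Myc and Larp1 among them, and 0 rose in spleen (by DESeq2 also 0 rose), with a median of −0.28, where 25.9% of all genes were lower. Thymic γδ T cells had 8 that fell, Myc among them, and 1, Tsr1, that rose, with 23.8% of all genes lower, and in DN1-DN3 cells 2 fell (10 with the block), where 6.32% of all genes were lower (10.1% with the block). Myc, which activates such genes, had 31.6 and 29.5 CPM in WT spleen and 4.29 and 2.14 CPM in KO (log2 −3.17, SE 0.31, adjusted p = 3.79e-05). The nucleolar genes Gnl3 (log2 −0.87) and Wdr12 (−0.79), the polymerase subunit Polr1b (−0.72) and Larp1 (−0.59) fell in spleen too. In thymic γδ T cells Myc fell by 1.18 (adjusted p = 0.00802) and Ncl by 0.62 on the log2 scale. Between WT thymic γδ T and DN1-DN3 cells, 24 of the 26 were lower in γδ T cells, Myc and Larp1 included. Of all genes, 20% were lower there. Whether Myc or the other listed genes had a part in the ribosomal protein values was not tested.

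Mitochondrial ribosomal proteins serve a separate ribosome. Of 78 tested, 28 rose and 3 fell in spleen (44 and 3 with the block), with a median log2 value of 0.27. There, 26.3% of all genes were higher and 25.9% lower. In thymus, 1 rose and 25 fell among γδ T cells (median −0.18), where 22.7% of all genes were higher and 23.8% lower. In DN1-DN3 cells 0 rose and 1 fell (12 passed an unadjusted p under 0.05, DESeq2 called 0 and 4, and the block gave 1 and 21), where 14.3% of all genes were higher and 6.32% lower (15.8% and 10.1% with the block). The interaction was positive for 39 of 78 and negative for 0 (by DESeq2 37 and 0), where 13.0% and 14.2% of all genes were called.

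Targets of p53 were checked as well, since unassembled ribosomal proteins are known to activate it. Of 9 tested, 8 rose and 1 fell in spleen, where 26.3% of all genes were higher and 25.9% lower. Among thymic γδ T cells 7 rose and 1 fell, where 22.7% of all genes were higher and 23.8% lower. Cdkn1a, the cell cycle inhibitor, had 1.19 and 0.857 CPM in WT spleen and 9.70 and 6.37 CPM in KO (log2 3.10, SE 0.30, adjusted p = 1.6e-05), and Bax, a mediator of apoptosis, had 126 and 136 against 223 and 221 CPM (log2 0.87). Trp53inp1 fell in both (log2 −1.39 and −0.40). The part of ribosomal proteins in these changes was not tested. In DN1-DN3 cells Cdkn1a fell by 2.10 on the log2 scale, and of the 9, 1 rose (2 with the block) and 2 fell, where 14.3% of all genes were higher (15.8% with the block) and 6.32% lower.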

How the data were processed

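Per the labels and the authors' methods, reads were processed with Cell Ranger 8.0.1 on GRCm39, cells were assigned to genotypes by hashtag, and what the authors deposited are unnormalized UMI counts, one matrix for each demultiplexed library. The 12 listed samples are 6 gene expression and 6 hashtag libraries, and the genotype of each demultiplexed library comes from the hashtag labels. Barcodes below 500 UMIs or 200 genes, or above 20% mitochondrial UMIs, were dropped as the authors did, which kept 96911 of 97404 cells. No doublet caller was run here. UMIs were summed per library, divided by the library total for CPM, and tested with edgeR 4.0.16 (quasi-likelihood, robust, TMM factors, filterByExpr), 1 fit of 12 libraries in 6 groups, with Benjamini-Hochberg adjustment over all genes and a limit of 0.05. The SE is the absolute log2 value divided by the root of F. DESeq2 1.42.0 was an alternative. Shares were compared by exact tests in Python 3.11.15 with scipy 1.17.1. A Vγ call is the single Trgv gene with most UMIs in a cell. CPM counts molecules by their 3′ ends, so gene length does not enter.

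The scripts were tested on simulated data. Pool numbers mark a shared droplet run, so they pair the libraries: the within-genotype pool differences of WT and KO correlated over all genes tested by 0.365 in spleen, 0.0516 in thymic γδ T and 0.273 in DN1-DN3 (over the members 0.805, 0.471 and 0.765). Each group has 2 libraries, and nothing in the labels says whether they came from separate mice. The p-values thus measure the spread between libraries, which may be technical, and the main fit takes this spread from all 6 groups together. The median absolute log2 difference of the members between pools (WT and KO) was 0.206 and 0.275 in DN1-DN3. In thymic γδ T cells it was 0.0286 and 0.0386, and in spleen 0.0493 and 0.158. The members and lists were chosen with earlier results of these data known. Named were the 5 called members with the largest rise and the 5 with the largest fall per compartment, if both pools went one way, 3 per direction for the other comparisons, the 5 of highest mean CPM, those next to the limit, and the fixed pairs and lists. Other genes, such as Rpl36al, Rps12 and Rpl8 and the examples from the lists, were named after their values were seen. Counting intervals cover counting error only. Some genes of the lists and figures are counted but not reported here by name, and 1 marker was left out of the IL-17 list.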

Additional observations from a re-analysis of the deposited data

Results flagged for a closer look

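The KO effect differed between splenic and thymic γδ T cells by the interaction test for 17 of 79 members. This was a smaller part than among all genes tested. The effect was more negative in spleen for 15 and more positive for 2, where 2566 (14.2%) and 2341 (13.0%) of 18056 genes were called. Among the members the negative calls were thus more frequent than among all genes and the positive calls less frequent. Of those named, Rpl12 differed by −1.01, Rps24 by −0.996 and Rps18 by −0.89 on the log2 scale, and Rps27l by 1.10 and Rps19bp1 by 0.72. The ribosomal protein share of UMIs was lower in KO in both splenic pools and higher in both thymic γδ T pools, with a difference between the effects of −6.27 percentage points, which was not tested. The thymic part of that difference was 0.117 points. Among Trgv6 cells the interaction called 0 members in either direction, where 1.41% of 12851 genes were more negative and 0.747% more positive.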

How the results depend on the processing

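The splenic share difference stayed negative under all alternatives run, between −7.15 and −4.03 points (leaving out 1 library, −6.93 to −5.39). That of thymic γδ T cells was −1.28 in Trgv6 cells, 0.785 at 3000 to 9000 UMIs and 0.235 without cycling cells. It was 0.263 without mitochondrial UMIs in the total and 0.108 to 0.125 without 1 library. The difference of DN1-DN3 was −1.75 to 1.79, negative without WT replicate 1 or KO replicate 2.

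Against 34 members lower in spleen, library totals gave 60, the pool as replicate block 61, the 4 libraries alone 59, these with the block (added after seeing the data) 66, cells of 3000 to 9000 UMIs 54, Trgv6 cells 14, an adjusted p below 0.01 gave 15, and leaving out 1 library 7 to 32. Against 2 higher, Trgv6 cells gave 0, the 0.01 limit 1 and leaving out 1 library 1 to 2. In thymic γδ T cells, 4 higher and 0 lower became 18 and 6 with the block, 25 and 6 with the 4 libraries, 26 and 6 with both, 4 and 1 with DESeq2, 4 and 3 with library totals, 8 higher at 3000 to 9000 UMIs, 0 higher in Trgv6 cells or at 0.01, and 0 to 1 higher without 1 library. In DN1-DN3, 0 and 0 became 2 and 1 with the block, 0 and 1 with the 4 libraries and the block, 1 higher at 3000 to 9000 UMIs and 0 to 3 lower without 1 library. The interaction, 15 more negative and 2 more positive, gave 30 with DESeq2, 41 with library totals and 52 with the block on the negative side, 26 and 0 at 3000 to 9000 UMIs, 0 and 0 in Trgv6 cells (added after seeing the data), 1 positive without cells holding a cycling marker, and 2 to 15 and 0 to 2 without 1 library. For WT γδ T against DN1-DN3, 3 lower and 0 higher became 7 and 1 with DESeq2, 8 and 1 with library totals, 5 lower with factors set without ribosomal genes, 3 higher at 3000 to 9000 UMIs and without cycling cells, and 0 to 2 and 0 to 1 without 1 library. Library totals shifted the splenic median of all genes by −0.11. Leaving out a library also leaves fewer residual degrees of freedom. For the other settings the cause was not tested. The block could not be fitted to WT γδ T against DN1-DN3, whose pools differ. No doublet removal or ambient correction was tried.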
